A study of Mus musculus with 6 samples.

Results

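This report describes the genes of the ubiquitin-conjugating enzymes and of the anaphase-promoting complex in pancreatic islet RNA. Members were taken by name from the table of counts: every UBE2 gene, every ANAPC gene, and CDC16, CDC23, CDC26 and CDC27, which encode further subunits of the complex. This gave 45 of 13702 listed genes, 32 of them UBE2 genes and 13 genes of the complex. Of these, 31 had at least 20 counts over the 6 libraries and were compared (23 UBE2 genes and 8 genes of the complex), and 23 passed the low-count filter of the test. The islets came from mice aged 12 weeks: 3 libraries from β-PCKO mice, which lack pyruvate carboxylase in their β-cells (KO), and 3 from WT littermates. Pyruvate carboxylase is a mitochondrial enzyme of glucose metabolism. The sources used here do not name the Cre driver, strain or sex, nor do they state that each library came from a separate animal.

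Ubiquitin is attached to proteins by a relay of enzymes. An E1 enzyme activates it, an E2 (ubiquitin-conjugating) enzyme carries it on an active-site cysteine, and an E3 ligase passes it to the target. The E2 and E3 together set which chain is built, and so whether the target is degraded by the proteasome, moved or switched in activity. The anaphase-promoting complex is a large E3 ligase that marks cyclins and securin for destruction in mitosis. It is also made in cells that do not divide, as most adult β-cells do not. The UBE2D enzymes serve many ligases, among them MDM2, the ligase of p53, and the series title names p53 activation as its subject.

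Several features of the libraries touch every value below. The table names genes with human identifiers and symbols although the organism is labelled mouse, and the sources used here do not say how reads came to be assigned to those names. Mouse genes of the same spelling, upper or lower case, exist for 43 of the 45 members. UBE2D2, whose mouse gene is called Ube2d2a, and UBE2Q2L have none. Total counts ran from 35906 to 377876 in the WT libraries and from 224898 to 225561 in the KO libraries. Markers of squamous epithelium, a lining that islets lack, took 21.5% of the counts of WT replicate 2 and 0.0578% to 0.133% of the others. Markers of fibrous connective tissue took 0.71% of the counts of WT replicate 3 and 0.0685% to 0.265% of the others. Of 13 islet markers looked for, 7 were listed, INS, GCG and SST not among them. The 7, mainly NEUROD1, PAX6 and MAFA, held 0.343%, 0.0151% and 0.0657% of counts in WT replicates 1, 2 and 3. In KO they held 0.324% to 0.374%. CHGA and CHGB had 1 count each, so the islet label rests mainly on NEUROD1, PAX6 and MAFA. The KO libraries were close to copies of one another: the chi-square per degree of freedom between pairs was 1.96 to 2.02, against 16.5 to 35.1 between WT pairs, where 1 is sampling noise. They were kept as 3 libraries, as labelled. In bulk RNA, fewer cells of a type and less RNA per cell cannot be told apart.

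The counting rests on telling close relatives apart, because UBE2D3 and UBE2D1, and UBE2B and UBE2A, gave different values below. The mouse coding sequences around the active-site cysteine show how far the relatives differ in letters. They were read from the GENCODE M21 transcripts (GRCm38), 63 bases each, from base 208 of the coding sequence in the UBE2D pair and from base 217 in the other pair. Capitals mark the bases that differ within a pair, 13 in the first and 14 in the second, and the cysteine codon begins at base 253 and base 262, respectively.
Ube2d3 (chr3:135459984-135460046, plus strand): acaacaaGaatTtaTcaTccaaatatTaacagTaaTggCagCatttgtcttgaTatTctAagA
Ube2d1 (chr10:71258235-71258297, minus strand): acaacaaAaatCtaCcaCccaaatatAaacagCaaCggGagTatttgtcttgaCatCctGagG
Ube2b (gene at chr11:51985497-52000762, minus strand): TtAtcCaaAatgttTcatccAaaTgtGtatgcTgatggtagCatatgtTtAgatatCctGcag
Ube2a (gene at chrX:36873900-36884222, plus strand): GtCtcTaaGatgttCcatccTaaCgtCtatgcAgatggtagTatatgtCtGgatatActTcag

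Over the whole coding sequence, Ube2d3 and Ube2d1 shared 77.3% of 444 bases, with no identical run longer than 14 bases, while their encoded proteins shared 88.4% of 147 residues. Ube2b and Ube2a shared 77.6% of 459 bases, with a longest run of 17, and 95.4% of 152 residues. The proteins are thus closer than the RNAs. How reads of these mouse genes divide among the human names was not tested.

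UBE2D3 and UBE2D2 held a large share of the counts on members. The pair took 64.2% of them in WT replicate 1, 34.3% in WT replicate 2, 46.0% in WT replicate 3 and between 51.1% and 53.6% in KO. A count is not a level per length, so counts are compared here between libraries and not between genes. All 45 members took 2.18%, 0.373% and 0.758% of all counts in WT, in the order of the replicate numbers used throughout, and 1.86% to 1.9% in KO. WT replicate 1 thus stood above the KO libraries in the summed share, and WT replicates 2 and 3 below them. Without UBE2D2 and UBE2D3 the shares were 0.780%, 0.245% and 0.410% in WT and 0.882% to 0.912% in KO, which put every KO library above every WT library. Both genes left out had WT replicate 1 above every KO library as a share, so the separation came with their removal.

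**Figure D1:**
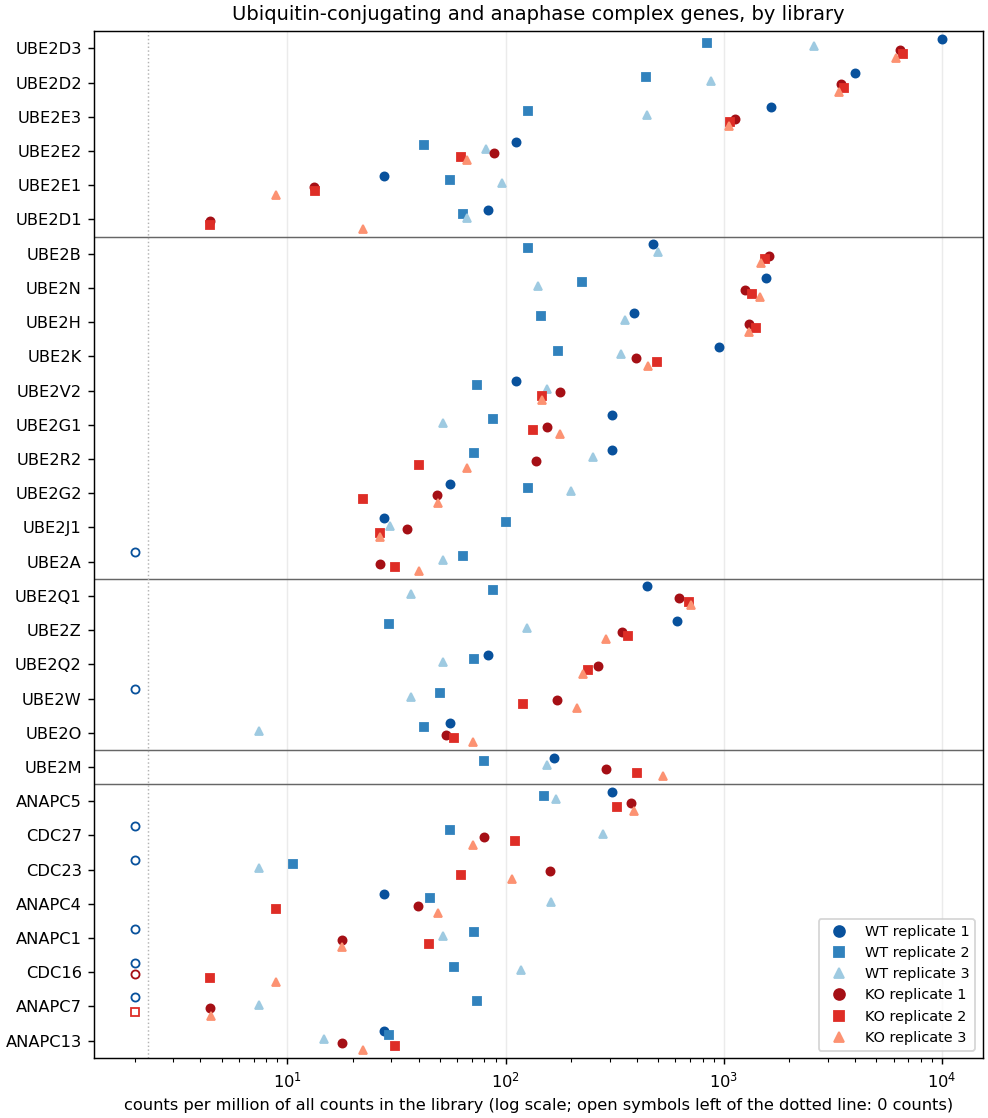
CPM of all counts in the library (log scale) for the 30 member genes with at least 30 counts, grouped from top to bottom as broad E2s, chain-building E2s, atypical or specialised E2s, E2s of other modifiers and the anaphase complex; each symbol is 1 library. The KO symbols lie close together, while for UBE2D3 the WT symbols run from 836 to 10030.

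KO was compared with WT to ask which of these genes differ when β-cells lack pyruvate carboxylase. In edgeR's quasi-likelihood test, with Benjamini-Hochberg adjustment over all 2560 genes tested, 3 of the 23 tested members rose in KO (UBE2H, UBE2B and CDC23) and 1 fell (UBE2D1). These are 13.0% and 4.35% of the tested members, beside 5.04% of all tested genes called higher and 3.01% called lower. With 23 members these shares amount to single genes. The 23 passed a filter on counts, which 51.1% of the members and 18.7% of all genes did, so they do not stand for all members. CDC23 met its limit of 44.4 CPM of all counts in KO libraries alone and UBE2D1 in WT libraries alone, so each had to differ in order to be tested. Of the other 21, which reached the limit in libraries of both groups, UBE2H and UBE2B were called. The median log2 fold change of the 23, KO minus WT, was 0.54, beside −0.14 over all genes tested. On CPM over the scaled (TMM) library sizes, which is the scale of all group means below, 9 tested members had every KO library above every WT library and 2 had every KO library below. That arrangement held for 22.6% and 12.3% of all tested genes.

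**Figure D2:**
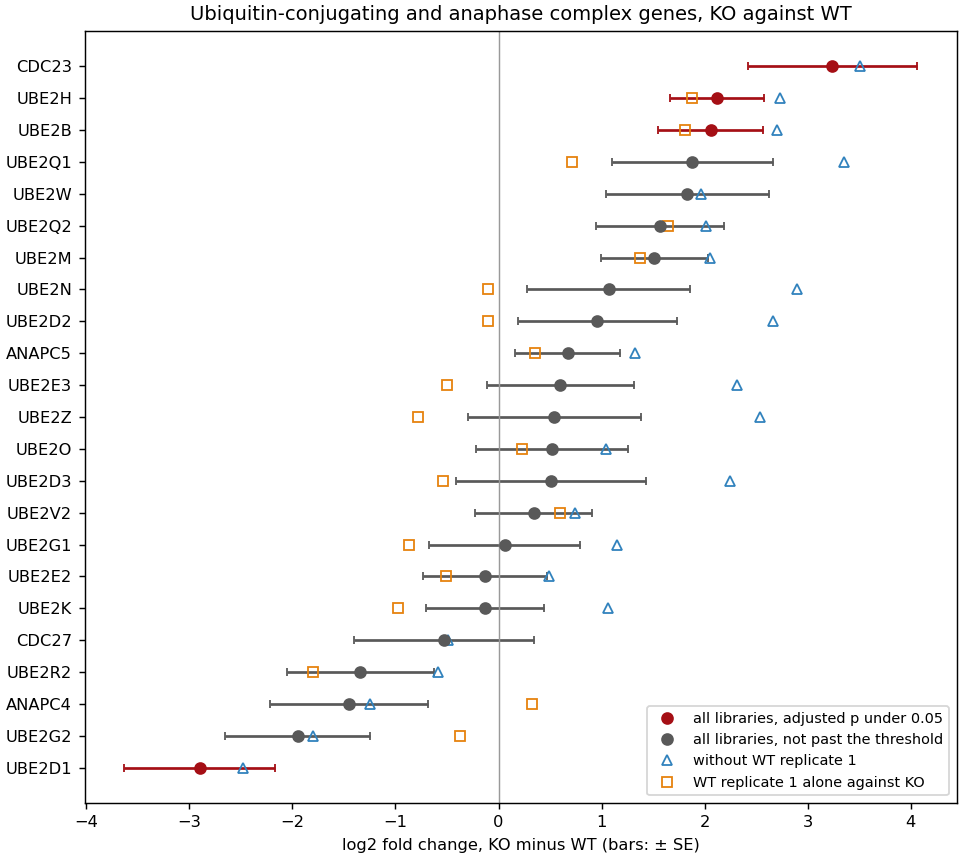
Log2 fold change, KO minus WT, of the 23 tested members (points, with bars of ± SE), and the same without WT replicate 1 (triangles) or against WT replicate 1 alone (squares, drawn where that library had counts and the gene was tested). UBE2H and UBE2B lie between 1.81 and 2.73 in these fits, while UBE2D3 moves from 2.25 to −0.54.

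Among the broad E2s, UBE2D3 (ENSG00000109332) had 360, 316 and 353 counts in WT, against 1456, 1490 and 1379 in KO. Its WT counts were alike although the library totals differed 10.5-fold, and their 95% Poisson intervals (324 to 399, 282 to 353 and 317 to 392) overlapped. On the scaled library sizes the same counts gave 9264, 1264 and 2228 CPM in WT, with KO at 6035 ± 236 (SD, n = 3) between them. The log2 fold change was 0.51 ± 0.92 (SE; edgeR adjusted p 0.722). Without WT replicate 1 it was 2.25 (adjusted p 0.00398 in edgeR). Without WT replicate 2 or WT replicate 3 it was 0.14 and 0.29 (adjusted p 0.917 and 0.882). Against WT replicate 1 alone it was −0.54. No p is given for the fit against WT replicate 1 alone, here or below. There 1 library stands for WT and its spread is borrowed from KO libraries that are close to copies. The p-values without WT replicate 1, here and below, rest on WT replicates 2 and 3 and on the same near-copies. Those WT libraries held islet-marker shares of 0.0151% and 0.0657%, beside 0.343% in WT replicate 1 and 0.324% to 0.374% in KO. With WT replicate 2 or a KO library left out no member was called, and with WT replicate 3 left out UBE2H alone was. The sign for UBE2D3 turned with WT replicate 1.

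UBE2D2 (ENSG00000131508) and UBE2E3 (ENSG00000170035), which encode a near relative and an E2 with an extended amino terminus, followed the same arrangement. UBE2D2 had 143, 167 and 119 counts in WT and 779, 800 and 762 in KO. UBE2E3 had 59, 48 and 60 counts in WT and 253, 240 and 238 in KO. Both had WT replicate 1 above the KO libraries as a share of all counts and the other WT libraries below. Their log2 fold changes were 0.96 ± 0.77 and 0.60 ± 0.71 (SE), with adjusted p of 0.417 and 0.585 in edgeR. Against WT replicate 1 alone they were −0.10 and −0.50, and without it 2.66 and 2.31 (adjusted p 0.00216 and 0.00451).

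Counts of this kind, alike in WT libraries of unlike depth, were not particular to these genes. Of 10 members with at least 10 counts in each WT library, 4 had a highest WT count under 2 times the lowest (UBE2D3, UBE2D2, UBE2E3 and UBE2K), or 40.0%, beside 27.3% of the 620 such genes in the whole table. Why the counts were alike was not tested.

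**Figure D3:**
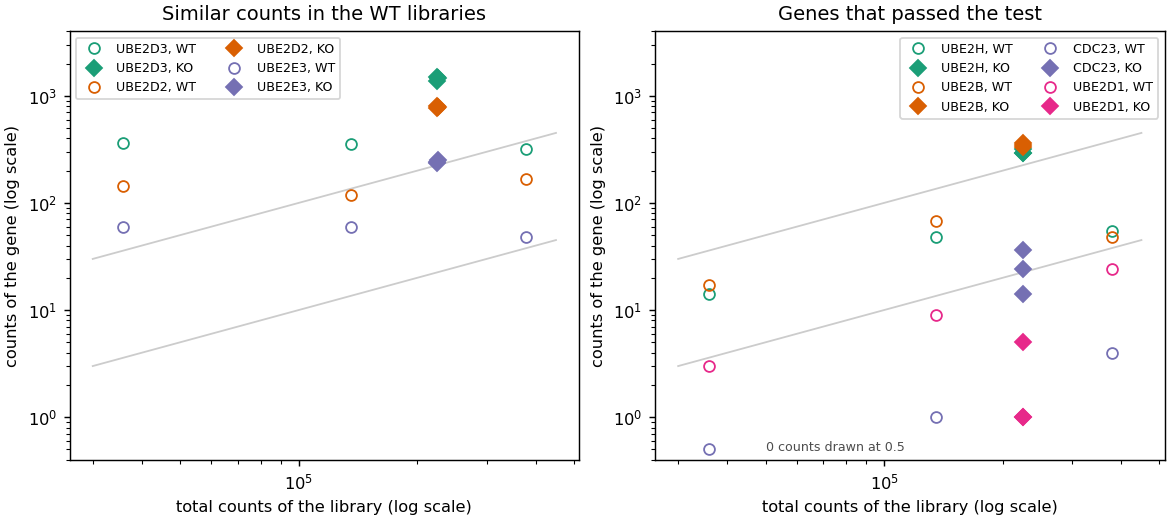
Counts of single genes (log scale) against the total counts of the library (log scale), with open circles for WT and filled diamonds for KO; grey lines mark a constant share of all counts. UBE2D3, UBE2D2 and UBE2E3 run flat across the WT libraries (left), whereas UBE2H, UBE2B, UBE2D1 and CDC23 were lower in the shallowest library than in the deepest (right).

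Ratios between members within a library do not depend on how libraries are scaled. The ratio of UBE2D3 to UBE2E3 counts was 6.10, 6.58 and 5.88 in WT and 5.75, 6.21 and 5.79 in KO, so the groups overlapped and the whole range was narrow. The ratio of UBE2D3 to UBE2D2 was 2.52, 1.89 and 2.97 in WT and 1.81 to 1.87 in KO. Here each KO library lay below each WT library, though close to WT replicate 2. Over a wider range, UBE2D3 stood at 25.7, 5.75 and 7.35 times UBE2H in WT and 4.71 to 4.97 times in KO. For UBE2B the ratios were 21.2, 6.58 and 5.19 in WT and 4.02 to 4.28 in KO. In the pairs with UBE2H and UBE2B each KO library again lay below each WT library, and WT replicate 1 stood far above the rest. UBE2H and UBE2B were already called higher in KO, so these ratios restate the same counts and are no separate support. With 3 libraries against 3, an exact permutation test cannot go below 0.1, and none was run on these ratios.

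**Figure D4:**
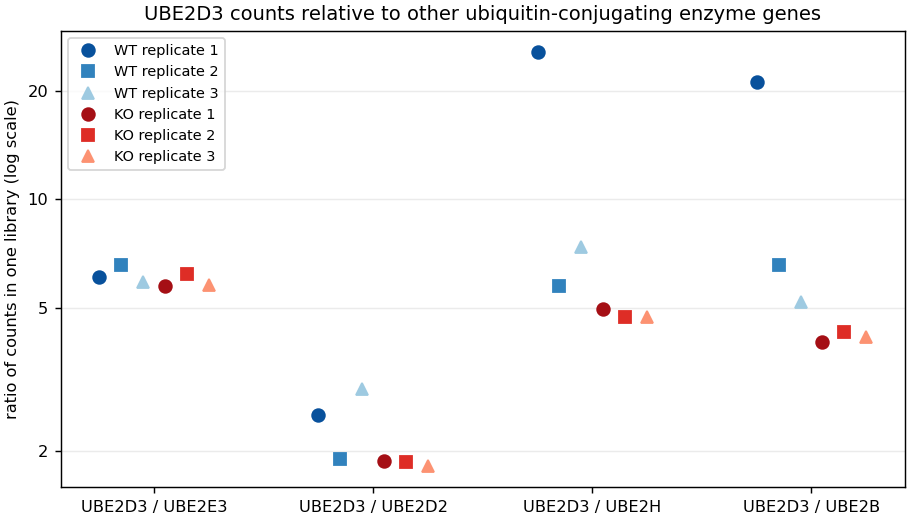
Ratio of UBE2D3 counts to those of UBE2E3, UBE2D2, UBE2H and UBE2B within each library (log scale); each symbol is 1 library. The ratio to UBE2E3 stays between 5.75 and 6.58, while those to UBE2H and UBE2B reach 25.7 and 21.2 in WT replicate 1.

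UBE2D1 (ENSG00000072401), which encodes another enzyme of the UBE2D family, fell in KO. It had 3, 24 and 9 counts in WT and 1, 1 and 5 in KO. Group means were 76.7 ± 19.6 CPM in WT and 9.76 ± 9.66 in KO (SD, n = 3 each), and each KO library lay below each WT library. The log2 fold change was −2.90 ± 0.73 (SE; adjusted p 0.0450 in edgeR). It was tested because of its WT libraries alone, and the fall rests on 7 KO counts. The call did not hold when WT replicate 2, WT replicate 3 or a KO library was left out, or without the low-count filter. Its log2 fold change over the alternatives ran from −3.64 to −1.63.

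The other members of these families had few counts. UBE2E1 had 1, 21 and 13 counts in WT and 3, 3 and 2 in KO, with each KO library lower as CPM. It did not pass the filter with all libraries. Without WT replicate 1 it passed through its WT libraries alone, so it had to differ in order to be tested. Its log2 fold change in that fit was −2.39 (adjusted p 0.0138 in edgeR). UBE2E2, with 31 WT and 49 KO counts, stood at 78.8 ± 21.1 CPM in WT and 68.4 ± 13.8 in KO (SD, n = 3 each; adjusted p 0.898). UBE2D4 had 3 counts in each group.

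UBE2H and UBE2B, grouped here with the chain-building E2s, rose in KO. UBE2H works with the CTLH ligase, which is known from red blood cell maturation and from the control of gluconeogenic enzymes in yeast. UBE2H (ENSG00000186591) had 14, 55 and 48 counts in WT and 293, 316 and 293 in KO. Means were 294 ± 70.6 CPM in WT and 1259 ± 51.4 in KO (SD, n = 3 each), with no overlap. Its log2 fold change was 2.12 ± 0.46 (SE; adjusted p 0.0322 in edgeR). Against WT replicate 1 alone it was 1.88.

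UBE2B is a mammalian counterpart of yeast RAD6 and marks histones and the DNA clamp PCNA with ubiquitin. UBE2B (ENSG00000119048) had 17, 48 and 68 counts in WT and 362, 348 and 332 in KO. Means were 353 ± 139 CPM in WT and 1454 ± 67.0 in KO (SD, n = 3 each), again with no overlap. The log2 fold change was 2.06 ± 0.51 (SE; adjusted p 0.0449 in edgeR), and 1.81 against WT replicate 1 alone. Its near twin UBE2A had 0, 24 and 7 counts in WT and 6, 7 and 9 in KO, and was not tested. The UBE2B to UBE2A ratio was 2.0 in WT replicate 2 and 9.71 in WT replicate 3, against 36.9 to 60.3 in KO.

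Both rises kept their sign in all 15 alternatives but not their call. UBE2H passed the threshold with DESeq2, its size factors and the other filters, and without WT replicate 1 or WT replicate 3. It also passed with genes over 1% of counts left out of library sizes. UBE2B passed in the same fits, with the exception given below. The fit against WT replicate 1 alone was not counted for either call. Both calls failed when WT replicate 2 or a KO library was left out, with library totals in place of TMM, with the replicate number as a block (adjusted p 0.0685 and 0.0725) and once all KO counts were added up as 1 library (0.713 and 0.740, the highest in edgeR). UBE2B was also lost without WT replicate 3.

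Other chain-building E2s did not pass the threshold with all libraries. UBE2N forms non-degradative chains with a partner, UBE2V1 or UBE2V2. UBE2N had 56, 85 and 19 counts in WT and 283, 303 and 331 in KO. Its log2 fold change was 1.07 ± 0.79 (SE; edgeR adjusted p 0.377). It was 2.90 without WT replicate 1 (adjusted p 0.00563) and −0.10 against that library alone. UBE2V2 had 4, 28 and 21 counts in WT and 40, 33 and 33 in KO, a log2 fold change of 0.34 ± 0.57 (SE). UBE2V1 had 5 WT and 3 KO counts.

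UBE2K, which builds degradative chains, stood at 476 ± 345 CPM in WT and 420 ± 44.3 in KO (SD, n = 3 each), from 34, 66 and 46 counts in WT and 89, 111 and 101 in KO. Its log2 fold change of −0.13 became 1.06 without WT replicate 1 (adjusted p 0.0245 in edgeR) and −0.98 against that library alone. UBE2R2, a partner of cullin-RING ligases, had 11, 27 and 34 counts in WT against 31, 9 and 15 in KO, for a log2 fold change of −1.34 ± 0.71 (SE; edgeR adjusted p 0.239). UBE2G1 differed by a log2 fold change of 0.06 ± 0.73 (SE).

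The E2s of protein clearance from the endoplasmic reticulum did not pass the threshold or were not tested. UBE2G2 had 2, 48 and 27 counts in WT and 11, 5 and 11 in KO, and every KO library was below every WT library as CPM. Its log2 fold change was −1.95 ± 0.70 (SE; adjusted p 0.111 in edgeR, and 0.0417 in DESeq2), −1.80 without WT replicate 1 (adjusted p 0.0279), and −0.37 against that library alone, where 2 counts stand for WT. UBE2J1, anchored in the membrane of that organelle, had 1, 38 and 4 counts in WT and 8, 6 and 6 in KO. Of its WT counts, 88.4% lay in WT replicate 2. UBE2J2 had 7 WT counts and 1 KO count.

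Among the atypical E2s, UBE2Q1 (ENSG00000160714) had 16, 33 and 5 counts in WT and 141, 156 and 160 in KO, or 192 ± 197 and 638 ± 39.7 CPM (SD, n = 3 each). The groups did not overlap, but the log2 fold change of 1.88 ± 0.78 (SE) had an adjusted p of 0.152 in edgeR. UBE2Q2, its relative, had 3, 27 and 7 counts in WT against 60, 54 and 51 in KO, for a log2 fold change of 1.57 ± 0.62 (SE; edgeR adjusted p 0.137). UBE2W, which adds ubiquitin to protein amino termini, had 0, 19 and 5 counts in WT and 39, 27 and 48 in KO (1.83 ± 0.79; adjusted p 0.163). All 3 genes had every KO library above every WT library. Without WT replicate 1 they passed the threshold, at log2 fold changes of 3.35, 2.01 and 1.96 (edgeR adjusted p 0.00625, 0.0177 and 0.0285). The 0 of UBE2W in WT replicate 1 allows up to 83.6 CPM of all counts, below the 120 to 213 seen in KO.

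UBE2Z, which takes ubiquitin from the E1 enzyme UBA6, changed sign with the WT libraries, as UBE2D3 did. It had 22, 11 and 17 counts in WT and 77, 82 and 65 in KO, a log2 fold change of 0.54 ± 0.84 (SE; edgeR adjusted p 0.680). It was 2.54 without WT replicate 1 (adjusted p 0.00824) and −0.78 against that library alone. UBE2O, a large enzyme with both E2 and E3 activity, had 2, 16 and 1 counts in WT and 12, 13 and 16 in KO (0.52 ± 0.74 on the log2 scale). UBE2S and UBE2T, the chain extender of the anaphase-promoting complex and the E2 of the Fanconi anaemia pathway, had 2 counts each, all in WT replicate 2. UBE2QL1 and UBE2Q2L had 1 count each. UBE2C, the other E2 devoted to the complex, was not analysed here.

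E2s of other modifiers included UBE2M and UBE2F for NEDD8, which switches on cullin ligases, and UBE2L6 for ISG15, the interferon-induced modifier. UBE2M (ENSG00000130725) had 6, 30 and 21 counts in WT and 65, 90 and 118 in KO, or 136 ± 17.4 and 381 ± 110 CPM (SD, n = 3 each), with no overlap. The log2 fold change was 1.51 ± 0.52 (SE; adjusted p 0.102 in edgeR), 2.05 without WT replicate 1 (adjusted p 0.00838) and 1.37 against that library alone. UBE2F had 8 counts, all in WT replicate 2, and UBE2L6 had 4 WT and 7 KO counts. Near the limit of 20 counts, ANAPC13 lay inside it with 30 counts in all and UBE2L6 outside it with 11.

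In the anaphase-promoting complex, CDC23 rose in KO. It encodes a subunit of the arm of repeat proteins that holds the activators of the complex. CDC23 (ENSG00000094880) had 0, 4 and 1 counts in WT and 36, 14 and 24 in KO, or 7.44 ± 8.06 and 103 ± 46.6 CPM (SD, n = 3 each). Pooled counts over pooled library sizes, which weight the deeper libraries more, gave a ratio of 9.24 of KO to WT (95% interval 3.79 to 29.3). The groups did not overlap, and the gene was tested because of its KO libraries alone. The log2 fold change was 3.24 ± 0.82 (SE; adjusted p 0.0450 in edgeR). The 0 in WT replicate 1 allows up to 83.6 CPM of all counts, and KO replicate 2 stood at 62.2 on that scale. The call held with DESeq2, its size factors, library totals and the other filters, and without WT replicate 1. It also held with genes over 1% of counts left out of library sizes. It failed when WT replicate 2, WT replicate 3 or a KO library was left out, with the replicate block and with summed KO columns. The sign was positive in all 15 alternatives. The fit against WT replicate 1 alone, with 0 WT counts, was not counted for the call.

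The other subunits of the same arm gave other values. CDC27 had 0, 21 and 38 counts in WT and 18, 25 and 16 in KO, with a log2 fold change of −0.53 ± 0.87 (SE; adjusted p 0.692 in edgeR). CDC16 had 0, 22 and 16 counts in WT and 0, 1 and 2 in KO, or means of 63.0 and 4.18 CPM, with a pooled-count ratio of WT to KO of 20.3 (interval 6.44 to 103). ANAPC7 had 0, 28 and 1 counts in WT and 1, 0 and 1 in KO, or means of 39.4 and 2.80 CPM, with a pooled-count ratio of 23.2 (5.88 to 201), which leans on WT replicate 2, the deepest WT library. CDC16 and ANAPC7 did not pass the filter. In both genes WT replicate 1 had 0 counts, and 96.6% of the WT counts of ANAPC7 lay in WT replicate 2. Without WT replicate 1, CDC16 passed the filter through its WT libraries alone, so it had to differ in order to be tested. Its log2 fold change in that fit was −3.88 (adjusted p 0.0102 in edgeR). Whether CDC23 differed from its partners in response was not tested.

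Among the scaffold subunits, ANAPC5 (ENSG00000089053) had 11, 57 and 23 counts in WT and 85, 73 and 87 in KO, or 219 ± 69.4 and 342 ± 32.7 CPM (SD, n = 3 each). Its log2 fold change of 0.67 ± 0.51 (SE) had an adjusted p of 0.388 in edgeR, and it was 1.32 without WT replicate 1 (adjusted p 0.0235). ANAPC4 had 1, 17 and 22 counts in WT and 9, 2 and 11 in KO (−1.45 ± 0.77 on the log2 scale; adjusted p 0.238). ANAPC1, the largest scaffold protein, had 0, 27 and 7 in WT and 4, 10 and 4 in KO, and the small subunit gene ANAPC13 had 1, 11 and 2 in WT and 4, 7 and 5 in KO. Both overlapped between groups as CPM and were not tested. The catalytic subunit genes ANAPC2 and ANAPC11 had 2 counts and 1 count, ANAPC10, the gene of the subunit that helps to hold targets, had 2 in WT and 7 in KO, CDC26 had 4, and ANAPC15 had 2.

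Markers of dividing cells had few counts outside WT replicate 2. Of 10 such markers 9 were listed, and together they reached 168 counts in WT replicate 2. WT replicates 1 and 3 had 4 and 9 such counts, and no KO library had more than 13. As shares of all counts these markers took 0.0111%, 0.0445% and 0.00664% in WT and 0.00222% to 0.00578% in KO. The 4 counts of WT replicate 1 all lay on PCNA. MKI67, the gene of Ki-67, had 69 counts in WT replicate 2 and at most 2 in any other library. The subunit genes of the complex took 0.0362%, 0.0511% and 0.0834% of counts in WT and 0.0591% to 0.0705% in KO, with the groups overlapping. The part of dividing cells in the values of CDC16 and ANAPC7, whose WT counts lay in WT replicates 2 and 3, was not tested.

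The partners and targets of these enzymes gave 6 called genes of 82 tested in edgeR, 2 higher and 4 lower in KO. Of all 2560 genes tested, 5.04% were called higher and 3.01% lower. The few calls here are described as single genes and not as a result about the lists. In the proteasome, 1 of 12 tested genes rose: PSME3, which encodes a nuclear activator of the proteasome, had 6, 16 and 21 counts in WT against 237, 199 and 172 in KO, for a log2 fold change of 2.92 ± 0.54 (SE; adjusted p 0.0237). Of 26 deubiquitinase genes, 1 rose and 3 fell. OTUB2 had 0, 1 and 0 counts in WT and 18, 17 and 16 in KO, a pooled-count ratio of KO to WT of 31.8 (5.46 to 1280). USP48 had 3, 38 and 60 in WT and 4, 5 and 5 in KO. MYSM1 and USP46 had log2 fold changes of −2.82 and −3.27. The adjusted p in edgeR lay between 0.0363 and 0.0459 for these last 3 genes. OTUB2 reached the filter's limit of 44.4 CPM of all counts in KO libraries alone, and USP48 and USP46 in WT libraries alone. OTUB2, USP48 and USP46 thus had to differ in order to be tested.

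Of 19 HECT and RBR ligase genes, HERC4 fell, with 34, 77 and 70 counts in WT and 36, 23 and 24 in KO (−2.19 ± 0.58 on the log2 scale; adjusted p 0.0496 in edgeR). None (0) of 12 cullin-RING ligase genes passed, with 1 at an unadjusted p under 0.05 in edgeR and 1 call by DESeq2. CAND1, which recycles cullin ligases, had 7, 111 and 54 counts in WT and 20, 11 and 18 in KO (adjusted p 0.0523), and CUL3 had an adjusted p of 0.317. None (0) of 5 E1 genes passed, with 0 at an unadjusted p under 0.05 and 0 by DESeq2. UBA6 had 0, 62 and 67 counts in WT and 7, 20 and 10 in KO (adjusted p 0.181). None (0) of 6 ubiquitin and ubiquitin-like genes passed, with 1 at an unadjusted p under 0.05 and 1 by DESeq2. RPS27A and UBB, which encode ubiquitin, missed the threshold (edgeR adjusted p 0.0563 and 0.182), and WT replicate 2 alone held 90.8% and 90.5% of their WT counts.

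Activators and inhibitors of the anaphase-promoting complex could not be compared, since none (0) of the 13 listed genes passed the filter. Together they had 9, 46 and 6 counts in WT and 5 to 6 in each KO library. As shares of all counts these were 0.0251%, 0.0122% and 0.00443% in WT and 0.00222% to 0.00267% in KO. Of 24 listed substrate genes, 3 were tested and none (0) passed, with 0 at an unadjusted p under 0.05 and 0 by DESeq2. ID2, which encodes an inhibitor of differentiation factors, had 6, 16 and 0 counts in WT and 49, 53 and 81 in KO (adjusted p 0.218 in edgeR). SNAP25, a gene of vesicle fusion, had 42, 28 and 93 in WT and 291, 381 and 327 in KO (adjusted p 0.261). Each had every KO library above every WT library as CPM.

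The choice of WT libraries set how many members were called. Without WT replicate 1, 14 of 27 tested members rose and 4 fell in edgeR, or 51.9% and 14.8%, beside 24.9% and 21.7% of all genes tested in that fit. Among the 14, CDC23 passed the filter through KO libraries alone. Among the 4, CDC16, UBE2D1 and UBE2E1 passed it through WT libraries alone. Those genes had to differ in order to be tested. A fit against WT replicate 1 alone was chosen after seeing the data. It passed 5 of 22 members as higher and 3 as lower, or 22.7% and 13.6%, beside 17.4% and 8.77% of all genes. It sets 1 library against the spread of near-identical KO libraries, so these counts describe those libraries and are not calls between genotypes. The median log2 fold change of all genes was 0.85 in that fit and −0.26 in the one before it. UBE2H and UBE2B were positive in both fits, at 2.73 and 2.70 without WT replicate 1, while UBE2D3 and UBE2K changed sign between them. The depth and tissue genes of the WT libraries moved with this choice of libraries, and their part was not tested.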

How the data were processed

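RNA of mouse islets was depleted of ribosomal RNA and sequenced as strand-marked libraries, per the labels' protocols. Tools named, without roles, per the submitters' processing notes are HTSeq 0.9.1, edgeR 3.16.5, HISAT2 2.0.4 and cutadapt 1.9.3, with build mm10. The deposited values used are raw read counts per gene and library, per the file headers. A further 6 per-sample columns of normalized values were not used, and 1 row without an identifier was left out. One count equals 2.65 to 27.9 CPM of all counts. Depth therefore limits precision most in WT replicate 1.

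The test was that of edgeR 4.0.16 under R 4.3.3 (TMM, filterByExpr, quasi-likelihood F test, two-sided, genotype alone, Benjamini-Hochberg adjustment at 0.05 over all genes tested). The script was tested on simulated data. SEs come from the F statistic. A count of 0 was taken to allow 3 counts per library. Intervals at 95% (Poisson for counts, exact conditional binomial for ratios) and floors cover counting error only. CPM, the usual scaling of counts to a common library size, was taken on all counts or on TMM sizes as stated. P-values cover only how these libraries vary, and that variation may be technical. The labels name no pairs, so libraries with the same number were not treated as pairs. Their deviations had correlations of −0.0149 to 0.0191. These cannot decide on pairing, since the KO libraries are close to copies and deviate little. Alternatives were DESeq2 1.42.0 and its size factors, library totals, other filters, leaving out libraries, a replicate block, summed KO columns and leaving out genes over 1% of counts from library sizes. Every member with at least 20 counts is named with its values. Related genes are named when called, up to 4 a list, or else the 2 with the smallest p. Exceptions are 1 member and 1 related gene, which are not reported here. Members and lists were chosen with earlier results of these data known.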

Additional observations from a re-analysis of the deposited data

How the results depend on the processing

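Among the single-gene values under the alternatives, 264 kept the direction and side of the threshold found with all libraries, 31 lost a call, 18 gained one and 34 changed sign, 3 of these among the 18. The 3 members called higher became 1 with library totals, 0 with the replicate block (6 members at an unadjusted p under 0.05 in edgeR), 0 with the KO columns summed to 1 library (4 members) and 5 against WT replicate 1 alone. The count ranged from 0 to 14 with 1 library left out. The 1 called lower became 0 without a low-count filter, at 20 counts, with the replicate block and with summed KO columns, 2 with DESeq2, 3 against WT replicate 1 alone, and 0 to 4 with 1 library left out. In the fits without 1 KO library or without WT replicate 2, all genes gave 3 to 16 calls. The 6 related genes called became 3 without a filter and at 20 counts, 12 with DESeq2, 2 with the replicate block, 0 with summed KO columns, 19 against WT replicate 1 alone, and 0 to 47 with 1 library left out. The median of the tested members moved from 0.54 to 1.05 with the replicate block, to 1.64 with summed KO columns, and ranged from 0.37 to 1.15 with 1 library left out. The cause was not tested. The fits that leave out or sum libraries also hold fewer samples, and the part of that was not tested either. Calls in the fit against WT replicate 1 alone, counted above, are not calls between genotypes. They include CDC23, CDC27 and UBE2W, which had 0 counts in that library and had to differ in order to be tested there. In the labels, libraries with the same number share only that number.

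Signs changed against WT replicate 1 alone for UBE2D3 (−0.54), UBE2D2 and UBE2N (−0.10 each), UBE2E3 (−0.50), UBE2Z (−0.78), UBE2G1 (−0.87), CDC27 (6.97, against 0 WT counts) and ANAPC4 (0.32). None of these 8 was called with all libraries. UBE2G1 was also −0.04 with DESeq2 and with its size factors, and −0.33 to 1.15 with 1 library left out. UBE2K, CDC27 and UBE2E2 turned positive without a filter (0.53, 0.39 and 0.65), at 20 counts (0.82, 0.40 and 0.80) and with summed KO columns (1.16, 0.80 and 1.12), UBE2K and CDC27 also with the replicate block (0.07 and 0.02), and UBE2E2 with library totals (0.03). With 1 library left out they ranged from −0.35 to 1.06, −0.73 to 0.59 and −0.17 to 0.49. Depth limits CDC23, UBE2D1, CDC16 and ANAPC7, which have 1 group with at most 7 counts.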
